A study of Mus musculus with 2 samples.

Results

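The 4 genes of the nuclear factor I family (Nfia, Nfib, Nfic and Nfix) and 3 Sox genes of retinal progenitors and glia (Sox2, Sox8 and Sox9) were followed through the cell classes of the postnatal day 7 mouse retina, with and without the m6A methyltransferase gene Mettl3. These 7 genes were taken by symbol from the 30905 genes listed in both single-cell libraries, and each was detected in both. The control library held retinas of littermates that the labels give only as control. The Mettl3-CKO library held retinas in which floxed Mettl3 was deleted by Six3-Cre, which acts in retinal progenitor cells (RPCs), with the deletion stated to be efficient in the central retina. Each library was 1 pool of 2 retinas from 2 pups of the same litter, so no comparison between the genotypes has a replicate, and none was tested.

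NFI proteins bind DNA as dimers at a palindromic site. In the retina, NFI factors act in late RPCs, where they favour the exit from the cell cycle and the late fates, the bipolar cells and the Müller glia. Sox2, a SoxB1 gene, keeps progenitors in the neural state and stays on in Müller glia. Sox8 and Sox9, of the SoxE group, are expressed in late RPCs and Müller glia, and Sox9 is needed for normal numbers of Müller glia. METTL3 is the catalytic subunit of the complex that methylates adenosines within GGAC-containing motifs of messenger RNA, often near stop codons.

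In GRCm38 with GENCODE M21 annotation, Nfia lies on chromosome 4, bases 97772734 to 98118874, on the plus strand. Nfib lies on the same chromosome, bases 82290173 to 82705750, on the minus strand. The other 2 NFI genes are on the minus strand, Nfic on chromosome 10, bases 81396186 to 81455635, and Nfix on chromosome 8, bases 84699876 to 84800344. Sox2 has a single exon on chromosome 3, bases 34650405 to 34652461, inside the long noncoding gene Sox2ot of the same strand, so reads of the 2 genes may not be told apart there. Sox8 is on chromosome 17, bases 25565892 to 25570686, on the minus strand, and Sox9 on chromosome 11, bases 112782224 to 112787760, on the plus strand. Sox9 was the only member whose span met no other annotated gene. Genes on the opposite strand overlap Nfia, Nfib, Nfic, Nfix and Sox8, and whether counting used strand is not given in the sources used here.

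Because the deleted enzyme favours GGACT, the transcript strand was searched for these 5 letters within 200 bases on either side of the last coding base of each principal transcript. Nfic and Sox2 each held 1 match, and the other 5 members held none in that window. Of 21699 protein-coding genes searched alike, 36.0% held at least 1 match. Both matches lie in the 3′ UTR, in Nfic 152 bases and in Sox2 8 bases after the last coding base. They are shown with 12 bases on each side, read from the GENCODE transcripts 5′ to 3′ on the transcript strand, and the capitals mark GGACT. The Nfic stretch is chr10:81400932-81400960 on the minus strand and the Sox2 stretch is chr3:34651369-34651397 on the plus strand. A match is not evidence of a methylated site.
Nfic: gaagccccctgcGGACTcccagctggatg
Sox2: catgtgagggctGGACTgcgaactggaga

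The files as read here held 3994 control and 3109 Mettl3-CKO cells with 20955138 and 19957693 non-mitochondrial unique molecular identifiers (UMIs), at medians of 4766 and 5441 UMIs per cell. Levels are given as CPM, the UMIs of a gene per 1000000 non-mitochondrial UMIs of a class. Since 1 UMI counts 1 transcript end, they are not scaled by gene length. Intervals are exact 95% intervals (Poisson for a level, conditional binomial for a ratio of Mettl3-CKO to control, Clopper-Pearson for a share of cells) and cover counting error only. Mettl3 itself stood at 39.5 CPM (36.9 to 42.3) in the control and 33.1 CPM (30.6 to 35.7) in the Mettl3-CKO library. The sources used here do not say which exons are removed, and reads from the 3′ end may lie outside the deleted part, so this is a weak check of the labels. Xist, the X-inactivation RNA, stood at 1.53 CPM in the control and 1544 CPM in the Mettl3-CKO library, with a UMI in 0.751% and 56.3% of cells. Sex and genotype cannot be told apart between whole libraries. The libraries shared 5 cell barcodes.

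Cells were grouped by joint clustering from which the 7 members had been left out, and clusters were named by fixed markers. The RPC-like class (187 control and 278 Mettl3-CKO cells) was led by Ube2c, Top2a and Cenpf in one cluster and by Cdc6 and Uhrf1 in another. The Müller-like class (339 and 170 cells) carried all 12 Müller markers in both libraries, with Gfap, the reactive glia and astrocyte marker, at 0 UMIs. The neurogenic-like class (210 and 240 cells) held Neurog2, Dll1 and Atoh7 together with precursor genes. The other named classes were rod/bipolar precursor-like (213 and 184 cells), rod-like (1206 and 766), cone-like (98 and 105), bipolar-like (124 and 37), amacrine-like (72 and 65) and microglia-like (34 and 30). A cluster led by Miat, Neurog2, Dll1 and Hes5 (180 and 287 cells) lay between these classes and stayed unnamed, as did 7 other clusters. Müller-like cells numbered 383 in the Mettl3-CKO library when it was clustered alone, so where the edge of this class falls depends on the clustering.

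Nfib was the most abundant NFI transcript from RPC-like to bipolar-like cells, and its level peaked in the rod/bipolar precursor-like cells. In the control library, Nfib stood at 615 CPM (578 to 654) in RPC-like, 685 (653 to 719) in Müller-like, 535 (500 to 572) in neurogenic-like and 874 (824 to 927) in precursor-like cells. It was low in the photoreceptors, at 57.0 CPM (50.5 to 64.0) in rod-like and 44.8 (31.7 to 61.5) in cone-like cells. The amacrine-like level of 788 CPM (715 to 866) did not differ from the precursor-like level beyond counting error, nor did the bipolar-like level of 570 CPM (525 to 617) from the RPC-like level above it or the neurogenic-like level below it. The Müller-like level was above the RPC-like one, with an interval of the ratio from 1.03 to 1.21.

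Nfic had the opposite distribution, high in photoreceptors and low in progenitors and glia. It stood at 480 CPM (461 to 500) in control rod-like, 388 (347 to 432) in cone-like and 331 (300 to 364) in precursor-like cells, against 89.7 (75.8 to 105) in the RPC-like class and 114 (101 to 128) in the Müller-like class. The order rod-like, cone-like, precursor-like also held in the Mettl3-CKO library, at 549, 448 and 346 CPM. Nfic made up 84.6% of the control rod-like cells' NFI UMIs and 6.67% of those of RPC-like cells.

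Nfia and Nfix were carried by RPC-like, Müller-like and amacrine-like cells and, at lower levels, by neurogenic-like cells (186 and 289 CPM in the control). Nfix was highest in amacrine-like cells, at 918 CPM (839 to 1002) in the control, compared with 404 (379 to 430) in Müller-like and 370 (342 to 401) in RPC-like cells. Nfia stood at 336 CPM (313 to 359) in Müller-like, 285 (242 to 333) in amacrine-like and 270 (246 to 297) in RPC-like control cells. Neighbours in this order did not differ beyond counting error, but the Müller-like and RPC-like intervals did not overlap. Both were low in photoreceptors, with Nfia at 6.92 CPM and Nfix at 23.6 CPM in control rod-like cells. Over the 9 named classes the control log levels of Nfia and Nfix gave a Pearson r of 0.92, and those of Nfia and Nfic one of -0.81, as a description of 9 classes from a shared library.

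Sox2 and Sox8 marked the progenitor and glial classes, and Sox9 extended further into the neurogenic and precursor cells. Sox2 stood at 503 CPM (475 to 532) in Müller-like and 450 (418 to 484) in RPC-like control cells and at 136 (118 to 155) in neurogenic-like cells. Sox8 stood at 185 CPM (168 to 203), 145 (127 to 165) and 22.7 (15.9 to 31.4) in the same classes. In the unnamed cluster led by Neurog2, Dll1 and Hes5, Sox8 was above both named classes, at 245 CPM (220 to 272). Sox9 reached 1125 CPM (1084 to 1168) in Müller-like, 794 (750 to 839) in neurogenic-like, 604 (567 to 643) in RPC-like and 351 (319 to 385) in precursor-like cells, the same order as in the Mettl3-CKO library. In microglia-like cells, which are not of the neural lineage, Sox2 and Sox8 had 0 UMIs and Sox9 had 1 and 2 UMIs. At a floor of 3 UMIs, a count of 0 in this small class stands for under 14.1 CPM in the control and 12.1 CPM in the Mettl3-CKO library.

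**Figure D1:**
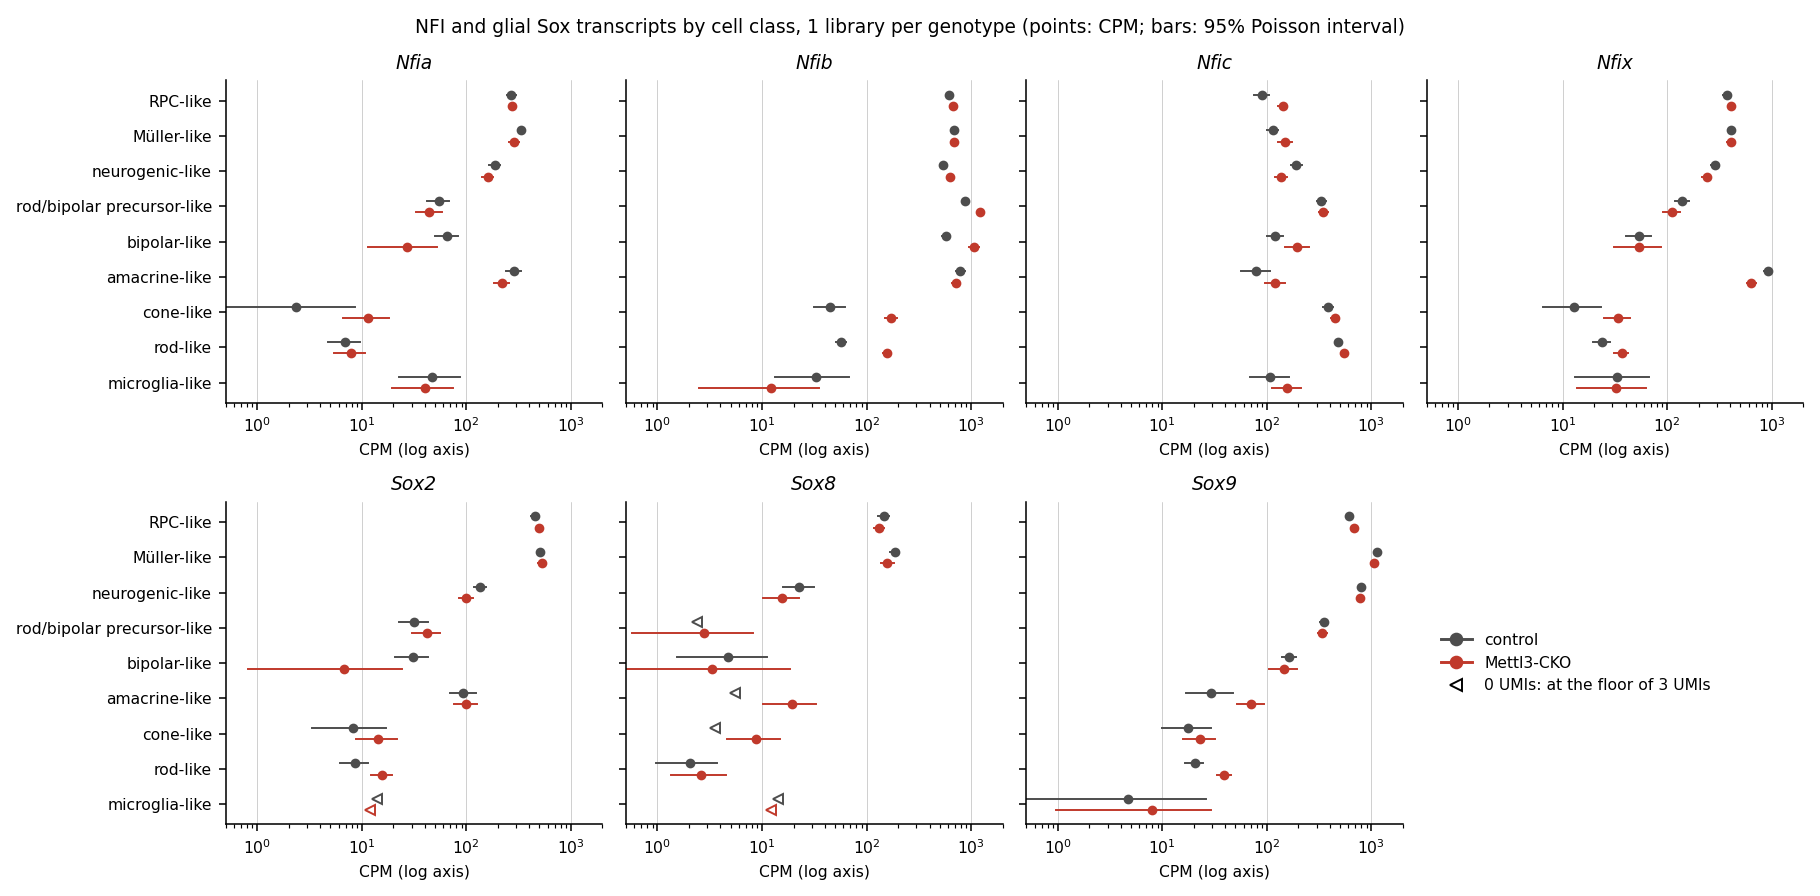
Level of each member (CPM, log axis) in each cell class, for the control and the Mettl3-CKO library, with exact 95% Poisson intervals as bars and open triangles at the floor of 3 UMIs where no UMI was counted. Nfic is highest in rod-like and cone-like cells, while Sox2 and Sox8 are highest in RPC-like and Müller-like cells.

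The step from progenitor to glia was accompanied by more Sox9 and by little else among the members. Sox9 was 1.86-fold higher (1.73 to 2.00) in Müller-like than in RPC-like control cells, and 1.56-fold higher (1.45 to 1.68) in the Mettl3-CKO library. The other 6 members lay between 1.09-fold and 1.27-fold in the control and between 0.993-fold and 1.21-fold in the Mettl3-CKO library. Thus 1 of 7 members was past a 1.5-fold difference in each library, where 33.4% of all 6296 genes with at least 100 UMIs were past it in the control and 30.8% of 6185 in the Mettl3-CKO library. Among regulators of gliogenesis, the Notch effector genes Hes5 and Hey1 were 1.89-fold and 1.83-fold higher in control Müller-like cells and Id3 was 2.33-fold higher. Mmd2, a glial gene described as a joint target of NFIA and SOX9, was 7.84-fold higher.

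The step from progenitor to neurogenic cell separated the Sox genes. Sox2 was at 0.301 (0.257 to 0.351) and Sox8 at 0.156 (0.107 to 0.223) of the RPC-like level in control neurogenic-like cells, whereas Sox9 was at 1.31 (1.21 to 1.43). The Mettl3-CKO ratios were 0.202, 0.119 and 1.14. Past 1.5-fold in control cells were 1 member that was higher, Nfic, and 2 that were lower, Sox2 and Sox8, where 44.8% of 5445 genes were past it either way. For the Mettl3-CKO library these were 4 members, all lower in neurogenic-like cells, where 40.6% of 6629 genes were past it. Besides Sox2 and Sox8 they were Nfia, at 0.583 (0.505 to 0.671), and Nfix, at 0.585 (0.521 to 0.656) of the RPC-like level. Nfic was at 2.14 (1.75 to 2.62) in the control and at 0.969 (0.819 to 1.15) in the Mettl3-CKO library, where its RPC-like level was higher and its neurogenic-like level lower.

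The makeup of the NFI pool differed along the same path. In RPC-like control cells Nfia, Nfib, Nfic and Nfix made up 20.1%, 45.7%, 6.67% and 27.5% of NFI UMIs. In precursor-like cells the shares were 3.89%, 62.5%, 23.6% and 9.98%. Amacrine-like cells stood apart with Nfix at 44.4%, and rod-like and cone-like cells with Nfic at 84.6% and 86.6%. In the Mettl3-CKO library Nfib took a larger share in rod-like (20.8% against 10.0%) and cone-like cells (25.8% against 10.0%), and Nfic correspondingly less.

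**Figure D2:**
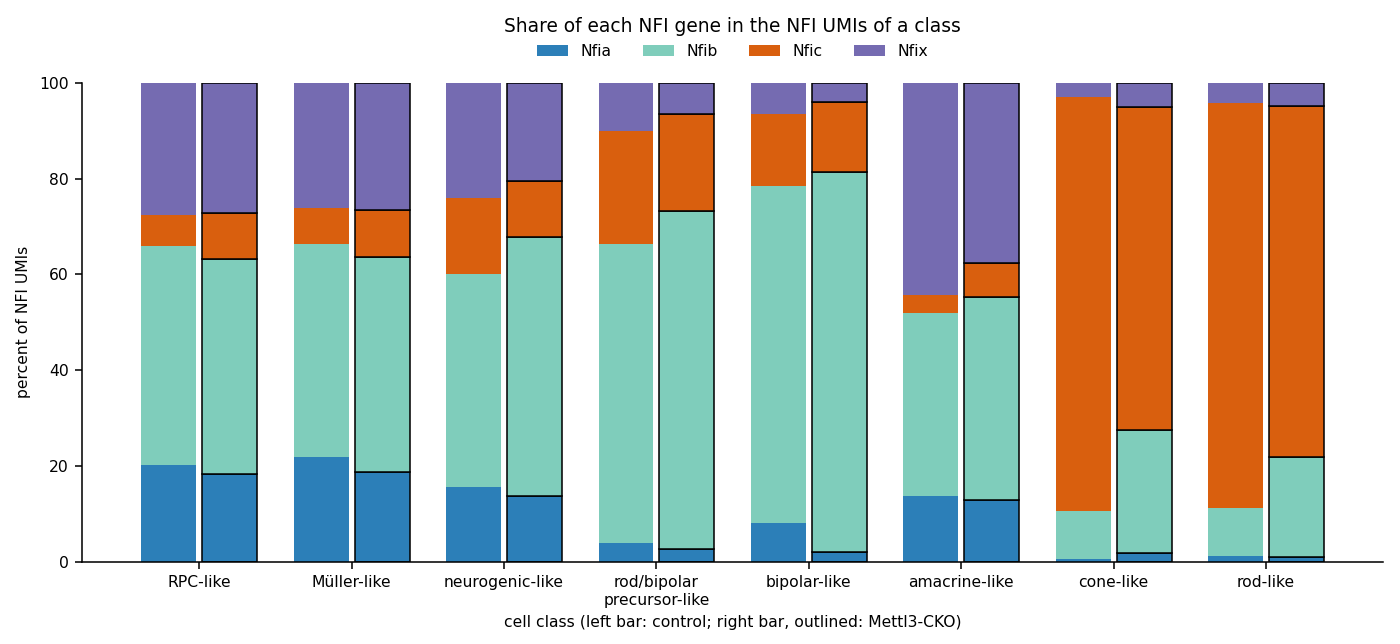
Percent of the NFI UMIs of each class that came from Nfia, Nfib, Nfic and Nfix, with the control as the left bar and the Mettl3-CKO library as the right, outlined bar. Nfib is the largest share in RPC-like, neurogenic-like, Müller-like, precursor-like and bipolar-like cells, and Nfic in rod-like and cone-like cells.

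In the progenitor and glial classes, most members had close levels in the control and Mettl3-CKO libraries when UMIs were summed over the class. In Müller-like cells 0 of 7 members was 1.5-fold apart, where 8.41% of all genes were. For Sox9 the Müller-like levels were 1125 CPM (1084 to 1168) in control and 1069 (1010 to 1130) in Mettl3-CKO retinas, giving a ratio of 0.95 (0.888 to 1.02). Nfib was at 685 and 683 CPM, a ratio of 0.997 (0.915 to 1.08), Nfix at 404 and 406 CPM, and Sox2 at 503 and 528 CPM. Nfia was lower over the class, at 336 and 287 CPM, a ratio of 0.855 (0.751 to 0.972) whose interval lies below 1 but inside the 1.5-fold band. In the main Müller-like cluster, led by Npy and Rlbp1, Nfia was at 351 and 335 CPM, a ratio of 0.956 (0.826 to 1.10). In a small cluster led by Sbspon and Prune2 it was at 297 and 173 CPM, from 49 and 50 UMIs. That cluster held 3.83% of control but 15.3% of Mettl3-CKO Müller-like cells. Another Müller-like cluster, led by Crym and Rlbp1, was of low depth, at medians of 1786 and 929 UMIs per cell. It held 36.3% of control and 40.6% of Mettl3-CKO Müller-like cells. Nfib had 48 and 40 UMIs there, a ratio of 1.87 (1.19 to 2.90). Sox2 had 31 and 26 UMIs, a ratio of 1.88 (1.07 to 3.27). Both had too few UMIs to be counted. The intervals of the other members included 1, with Sox8 at 0.305 (0.0585 to 1.02) from 22 and 3 UMIs. Over the whole Müller-like class the Müller markers were further apart, with 3 of 10 measured markers past 1.5-fold, all lower in Mettl3-CKO cells. These were Rlbp1, a retinoid-binding protein (1876 and 1194 CPM), Vim, an intermediate filament (1872 and 1235 CPM), and Crym (3371 and 1895 CPM).

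In RPC-like cells 1 of 7 members, Nfic, was past 1.5-fold, beside 7.71% of all genes. Sox9 stood at 604 CPM and 685 CPM (653 to 718), a ratio of 1.13 (1.05 to 1.23), Sox2 at 450 and 497 CPM, a ratio of 1.10 (1.01 to 1.21), and Nfib at 615 and 675 CPM, a ratio of 1.10 (1.01 to 1.19). Nfia was at 270 and 274 CPM and Sox8 at 145 and 130 CPM, the latter with a ratio of 0.897 (0.757 to 1.06). The median log2 ratio of the members was 0.14, against 0.05 over all genes. In the clusters led by Ube2c and by Cdc6 the Sox9 ratios were 1.08 and 0.928. In the RPC-like cluster of low depth (64 and 85 cells) Sox9 had 27 and 51 UMIs, Nfix 35 and 46, Sox2 21 and 29 and Sox8 2 and 11, all under the 100 UMIs asked of a comparison, with ratios of 2.86 (1.76 to 4.75), 1.99 (1.26 to 3.18), 2.09 (1.15 to 3.86) and 8.33 (1.82 to 77.4). Sox8 was at 264 and 168 CPM in the cluster led by Cdc6, a ratio of 0.637 (0.472 to 0.861).

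In the unnamed cluster led by Neurog2, Dll1 and Hes5, 0 of 7 members was past 1.5-fold, beside 9.75% of all genes. Sox9 was at 912 and 934 CPM and Nfib at 788 and 804 CPM. In neurogenic-like cells 0 of the 6 members with enough UMIs was past 1.5-fold, beside 4.23% of all genes, and their median log2 ratio was -0.25 against -0.00 over all genes (0.02 with cells named by their own markers and 0.08 with cells thinned to 1000 UMIs). Nfic was at 192 and 137 CPM, a ratio of 0.714 (0.60 to 0.849), and Sox2 at 136 and 100.1 CPM, a ratio of 0.738 (0.601 to 0.906). Nfib went the other way, at 535 and 631 CPM, a ratio of 1.18 (1.08 to 1.29), and Sox9 was level at 794 and 783 CPM. Sox8 had 36 and 27 UMIs there and was not counted.

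**Figure D3:**
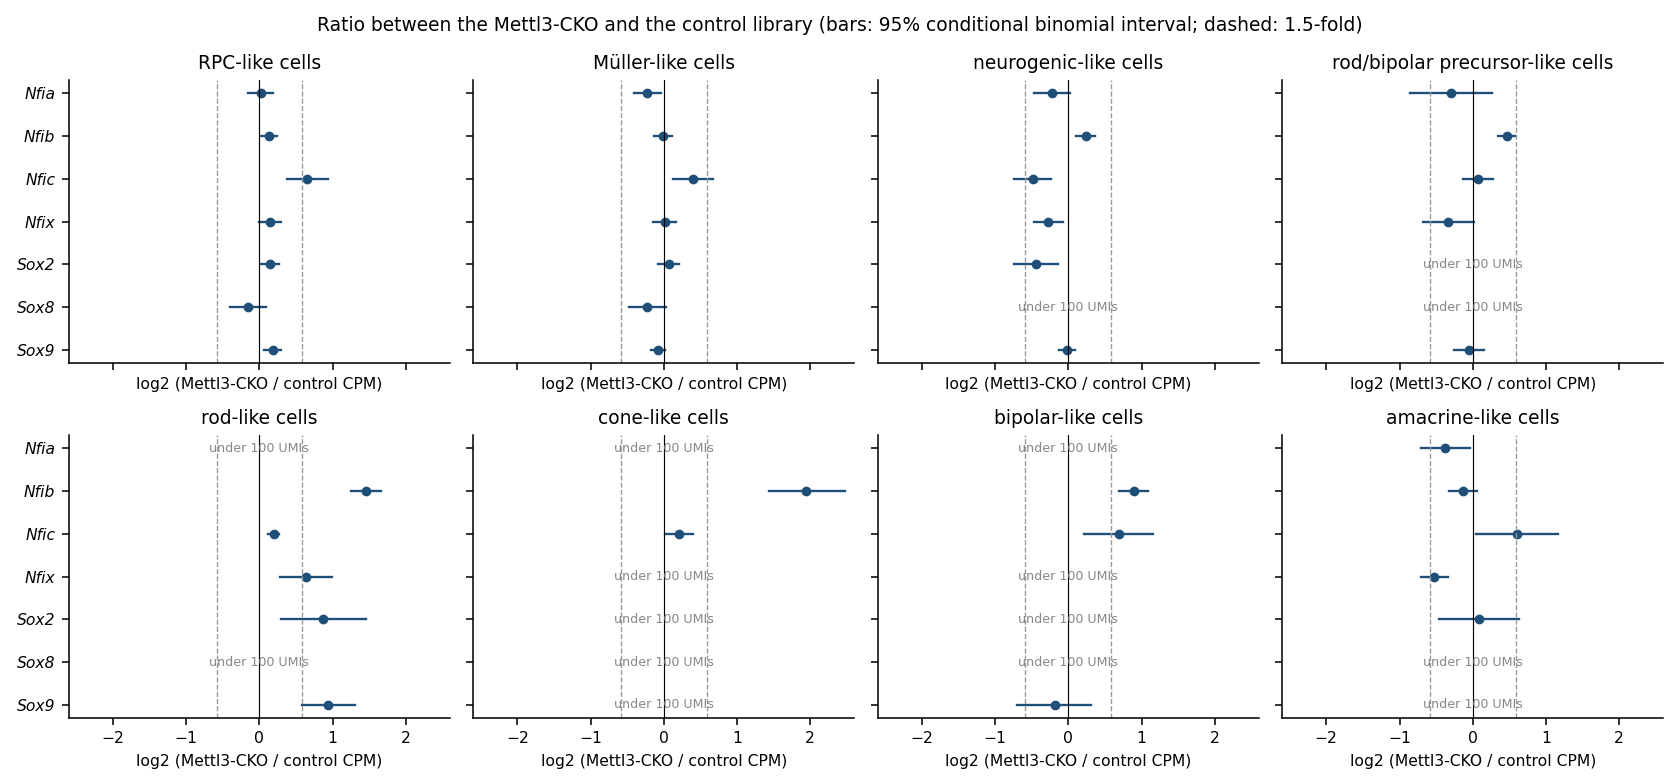
Log2 ratio of the Mettl3-CKO to the control level of each member in each class, with 95% conditional binomial intervals as bars and dashed lines at 1.5-fold. In Müller-like cells all 7 points lie inside the dashed lines, while Nfib lies to the right of them in rod-like, cone-like and bipolar-like cells.

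In Mettl3-CKO progenitors, Nfic and the rod transcripts were both above their control levels. RPC-like Nfic stood at 89.7 CPM (75.8 to 105) in control and 141 (127 to 157) in Mettl3-CKO retinas, giving a ratio of 1.57 (1.30 to 1.92). The summed level of the 12 rod markers in the same cells was 290 CPM in the control and 546 CPM in the Mettl3-CKO library, and each of the 12 had a UMI in both. In RPC-like cells with fewer than 5 rod UMIs, Nfic was at 87.0 and 126 CPM, a ratio of 1.44 (1.17 to 1.79), and in those with more it was at 124 and 209 CPM. In the cluster led by Neurog2, Dll1 and Hes5 Nfic was at 74.6 and 106 CPM, a ratio of 1.41 (1.12 to 1.79), where the rod markers were lower in Mettl3-CKO cells, at 239 and 146 CPM.

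Within the RPC-like class Nfic was at 75.3 and 149 CPM in the cluster led by Ube2c, a ratio of 1.98 (1.54 to 2.57). In the cluster led by Cdc6 the ratio was 1.27 (0.824 to 1.99), and in the low-depth cluster it was 0.781 (0.408 to 1.44) from 33 and 17 UMIs. The intervals of the first 2 clusters overlap, and the difference between clusters was not tested. The mean of per-cell CPM also gave a smaller difference than the summed counts, 0.16 on the log2 scale against 0.66.

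In Müller-like cells Nfic was at 114 and 150 CPM, a ratio of 1.32 (1.09 to 1.60), and the rod markers at 692 and 2137 CPM. Without the cells that had 5 or more rod UMIs (6.49% of control and 17.6% of Mettl3-CKO cells), Nfic was at 103 and 98.2 CPM. The main Müller-like cluster, led by Npy and Rlbp1, gave 105 and 102 CPM. A small cluster led by Sbspon and Prune2 had 285 and 311 CPM and held 3.83% of control but 15.3% of Mettl3-CKO Müller-like cells.

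Nfib differed most between the genotypes in the precursors and neurons that follow from them. It stood at 874 CPM (824 to 927) in control and 1206 (1141 to 1273) in Mettl3-CKO precursor-like cells, a ratio of 1.38 (1.27 to 1.5). In that class 0 of the 5 members with at least 100 UMIs was past 1.5-fold, beside 3.08% of all genes. In bipolar-like cells Nfib was at 570 CPM (525 to 617) and 1058 (944 to 1181), a ratio of 1.86 (1.62 to 2.13), and Nfic at 120 and 195 CPM, a ratio of 1.62 (1.16 to 2.22). Among members with at least 100 UMIs, these were the ones past 1.5-fold, in a class where 11.8% of all genes were. Nfia, with 68 and 8 UMIs, had a ratio of 0.413 (0.172 to 0.862) but too few UMIs to be counted. The same held for Sox2, with 32 and 2 UMIs and a ratio of 0.220 (0.0255 to 0.861). Nfix (56 and 16 UMIs) and Sox8 (5 and 1) were not counted either.

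The bipolar-like class was also the least matched one. It held 37 Mettl3-CKO cells, its summed bipolar markers stood at 2375 CPM in the control and 997 CPM in the Mettl3-CKO library, and its rod markers at 2357 and 4235 CPM. Clustered alone, the Mettl3-CKO library gave 153 bipolar-like cells. In an unnamed cluster led by Cntnap5a, Rimkla and Hsd11b2 (101 and 114 cells), Nfib was likewise at 761 CPM (702 to 824) and 1304 (1230 to 1381).

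Photoreceptors had low Nfib in the control and more of it in the Mettl3-CKO library. In cone-like cells Nfib was at 44.8 CPM (31.7 to 61.5) and 172 (151 to 194), a ratio of 3.83 (2.72 to 5.54), as 1 of 2 measured members past 1.5-fold beside 7.70% of all genes. Under 100 UMIs there were Nfix (11 and 50 UMIs), Nfia (2 and 17), Sox8 (0 and 13), Sox2 (7 and 21) and Sox9 (15 and 34). The median depths of the cone-like cells also differed, at 9001.5 and 13439 UMIs per cell. The summed cone markers were at 24897 and 16400 CPM in these cells and the precursor markers at 3536 and 5009 CPM, and the part of this shift was not tested. In rod-like cells Nfib was at 57.0 CPM (50.5 to 64.0) and 156 (145 to 168), a ratio of 2.74 (2.38 to 3.15).

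In rod-like cells 4 members were past 1.5-fold, all higher in the Mettl3-CKO library, beside 4.54% of all genes. Besides Nfib these were Nfix (23.6 and 36.6 CPM), Sox2 (8.54 and 15.6 CPM) and Sox9 (20.3 and 39.0 CPM). These levels are small fractions of those in RPC-like cells. Sox2 rested on few UMIs, 14 and 10 in the largest rod-like cluster and 10 and 47 in the one led by Klhl33. The classes were not made of the same rods. The cluster led by Klhl33, Rp1 and Nr2e3 held 10.5% of control but 22.8% of Mettl3-CKO rod-like cells. Within it Nfib was at 204 and 357 CPM, a ratio of 1.75 (1.47 to 2.09), while Sox9 was at 76.5 and 85.7 CPM, a ratio of 1.12 (0.826 to 1.53). The median depths of that cluster were unlike, at 5500 and 9183 UMIs per cell, and the part of depth was not tested. In the largest rod-like cluster Nfib was at 35.5 and 40.7 CPM, a ratio of 1.15 (0.782 to 1.67). When each cell was named by its own markers, Sox9 had a log2 ratio of -0.34 in rod-like cells in place of 0.94. With predicted doublets left out Sox9 had 2.08, but that step removed rod-like cells from the control library alone. It left 1188 control and all 766 Mettl3-CKO rod-like cells, so the 2 libraries were not treated alike in that value. Nfib stayed between 0.83 and 1.72 on the log2 scale under every alternative run.

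In amacrine-like cells 1 of the 5 members with at least 100 UMIs, Nfic, was just past 1.5-fold, beside 7.55% of all genes. It was at 78.9 and 120 CPM, a ratio of 1.52 (1.04 to 2.25). Sox9 (16 and 48 UMIs, a ratio of 2.42, 1.35 to 4.56) and Sox8 (0 and 13 UMIs) had too few UMIs to be counted. The rod markers stood at 2309 and 4128 CPM in those cells. Nfix was at 918 CPM (839 to 1002) and 639 (580 to 702), a ratio of 0.696 (0.611 to 0.793). It was the leading NFI gene of this class in the control, with 44.4% of NFI UMIs against 38.1% for Nfib, while in the Mettl3-CKO library Nfib led with 42.4% against 37.6%. Amacrine markers were lower too, at 2018 and 1433 CPM summed. The part of either list in these differences was not tested.

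RPC-like and Müller-like cells were ordered by a score, the mean log level of the Müller markers minus that of the RPC markers. The score was computed without any member, and the cells were divided into 5 bins of equal cell number. Some of the Müller markers were themselves lower in Mettl3-CKO cells, so cells of a like score need not be at a like stage. Control cells lay further to the glial end, with a median score of 0.939 against 0.0384 in Mettl3-CKO cells. In this ordering Sox9 was higher at the glial end in both libraries but did not climb at every step. In the control it stood at 623 CPM (560 to 691) in the first bin, 582 (527 to 641) in the second and 1218 (1155 to 1283) in the last. The Mettl3-CKO library had 717 (669 to 767), 584 (537 to 634) and 1058 (959 to 1165) in the same bins, with 1184 in the fourth. Sox9 in the last bin had a Mettl3-CKO to control ratio of 0.869 (0.777 to 0.970), and in the third of 1.22 (1.08 to 1.37).

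Sox8 was lowest in the first bin, at 115 CPM (89.0 to 146) in control and 107 (89.1 to 127) in Mettl3-CKO cells, with 173 and 166 CPM in the last. Nfia lay between 213 and 357 CPM over the control bins and between 221 and 368 CPM over the Mettl3-CKO bins. Of the 35 pairs of member and bin, 2 were past 1.5-fold between the genotypes, both Nfic, with 73.2 and 141 CPM in the first bin and 100.4 and 160.5 CPM in the third. Of all genes with at least 100 UMIs, 7.80%, 9.87%, 7.95%, 7.15% and 6.04% were past it in the first to the last bin. Nfic was close at the glial end, at 111 and 123 CPM. Rlbp1, which is part of the score, was still lower in the third bin of the Mettl3-CKO library, at 990 and 514 CPM.

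**Figure D4:**
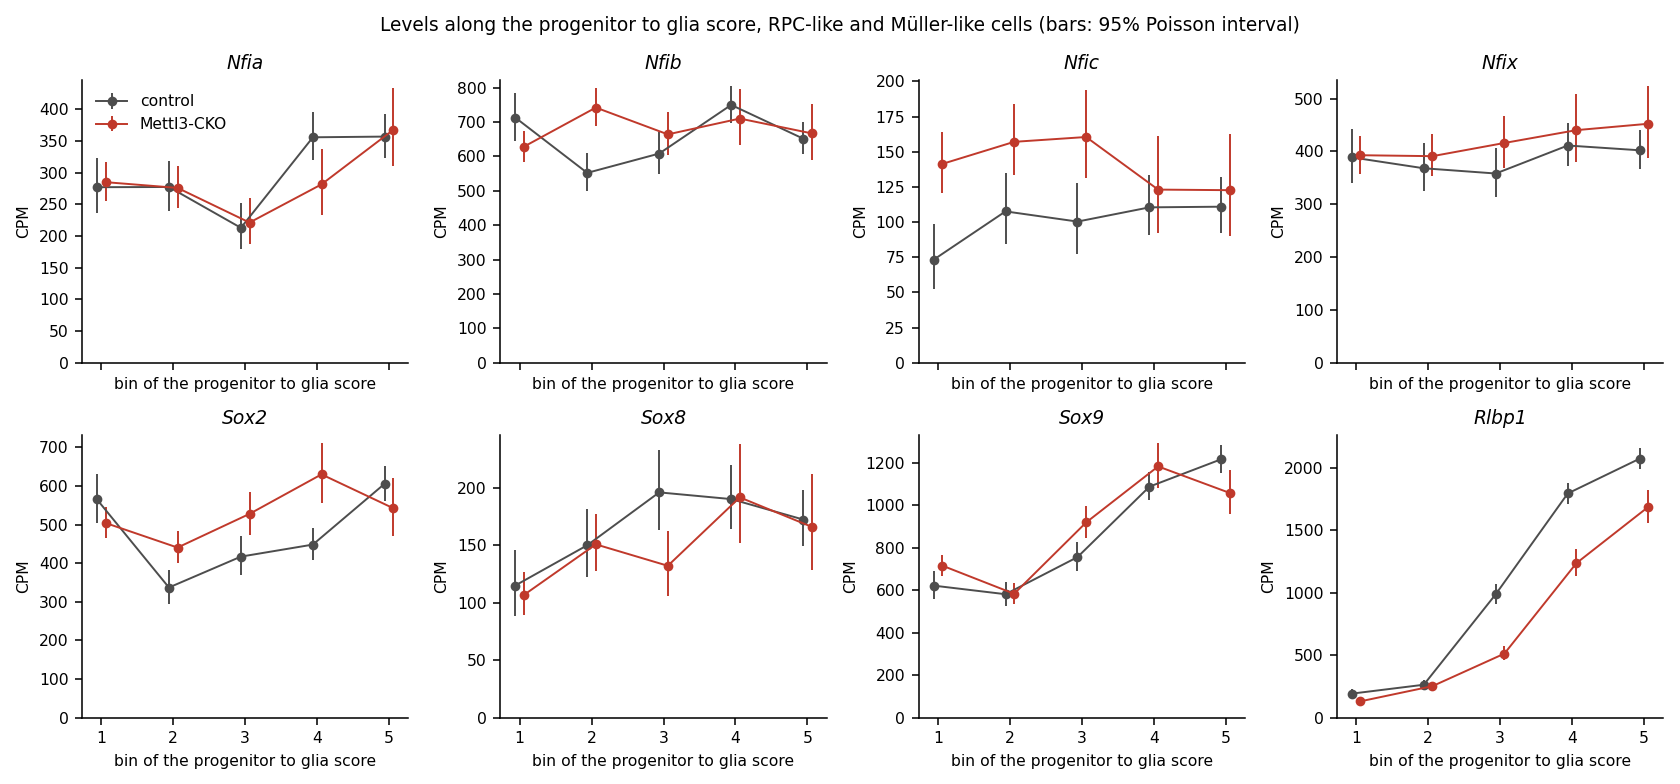
Level (CPM) of the 7 members and Rlbp1 in 5 bins of the progenitor to glia score, for RPC-like and Müller-like cells of the control and the Mettl3-CKO library, with exact 95% Poisson intervals. Sox9 is lowest in the second bin and higher from the third bin on in both libraries. Nfic is higher in the first bins of the Mettl3-CKO library (141 against 73.2 CPM in the first).

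The members were next compared in subclusters whose cells came almost wholly from the Mettl3-CKO library. Reclustering the Müller-like cells gave a subcluster of 22 Mettl3-CKO cells and 1 control cell, led by Cdkn1a, Serpine2 and Phlda3 (Cdkn1a and Phlda3 are known p53 targets). When the cluster led by Neurog2, Dll1 and Hes5 was reclustered with them, a step added after the data were seen, the corresponding subcluster held 137 Mettl3-CKO cells and 1 control cell. Of these 137 cells, 28 came from the Müller-like class and 109 from that unnamed cluster. Its Mettl3-CKO cells had Cdkn1a at 481 CPM against 12.2 CPM in Müller-like control cells. As the clustering used these genes and the Müller markers, their values describe the subcluster, while the members had been left out of it.

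The Müller-like control cells are an unlike reference for the 109 cells of the unnamed cluster, since the summed Müller markers stood at 12534 CPM in Müller-like and 5923 CPM in that cluster's control cells. Each set was therefore also set against control cells of its own class, a comparison added after the data were seen. Against the 339 Müller-like control cells, the 28 Müller-like cells had 0 of 7 members past 1.5-fold, where 26.9% of all genes were. Sox9 was at 1532 CPM against 1125, a ratio of 1.36 (1.23 to 1.51), Nfib at 864 against 685, a ratio of 1.26 (1.10 to 1.44), and Sox2 at 622 against 503. Rlbp1 was at 548 CPM against 1876, a ratio of 0.292 (0.247 to 0.343).

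Against the 180 control cells of the unnamed cluster, the 109 cells from it had 1 of 7 members past 1.5-fold, Nfic, where 20.6% of all genes were. Nfic was at 127 CPM against 74.6, a ratio of 1.70 (1.29 to 2.24). Nfix was at 468 CPM against 350, a ratio of 1.34 (1.17 to 1.53), and Sox9 at 1119 against 912, a ratio of 1.23 (1.13 to 1.33). Nfib (837 and 788 CPM) and Nfia (274 and 272 CPM) were level within counting error, and Sox8 was at 191 against 245, a ratio of 0.78 (0.645 to 0.939). Rlbp1 was at 404 CPM against 747, a ratio of 0.541 (0.479 to 0.610).

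With all 137 cells set against Müller-like control cells, 0 of 7 members was past 1.5-fold, while 23.4% of all genes were. That comparison gave Sox9 a ratio of 1.08 (1.01 to 1.16), Nfib 1.23 (1.14 to 1.33), Nfia 0.834 (0.732 to 0.949) and Rlbp1 0.234 (0.213 to 0.256). In the smaller subcluster, 1 of 7 members was past 1.5-fold from the Müller-like control cells, where 33.6% of 4633 genes were. This was Sox8, at 119 CPM against 185, a ratio of 0.645 (0.413 to 0.965) from 25 UMIs, and Sox9 was at 1608 CPM, a ratio of 1.43 (1.27 to 1.60).

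Genes of the lists set beside the members are given for both sets against control cells of their own class. Of the glial targets, Fabp7, a fatty acid binding protein, was lower in both, at 38.6 CPM against 103 in the 28 and at 51.7 against 157 in the 109 cells. Mmd2 was at 31.6 CPM against 71.7 in the 28 cells from 9 UMIs, and at 4.49 against 17.6 in the 109 cells, with too few UMIs to be counted. Of the gliogenic regulators Id1 was lower in both, at ratios of 0.436 and 0.546. Id3 was lower in the 28 cells, at a ratio of 0.456, and at 0.949 (0.869 to 1.04) in the 109 cells. The other 142 Müller-like Mettl3-CKO cells had 7.76% of all genes past 1.5-fold from the control, and no member among them, with Nfic at a ratio of 1.45 and Sox9 at 0.817.

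**Figure D5:**
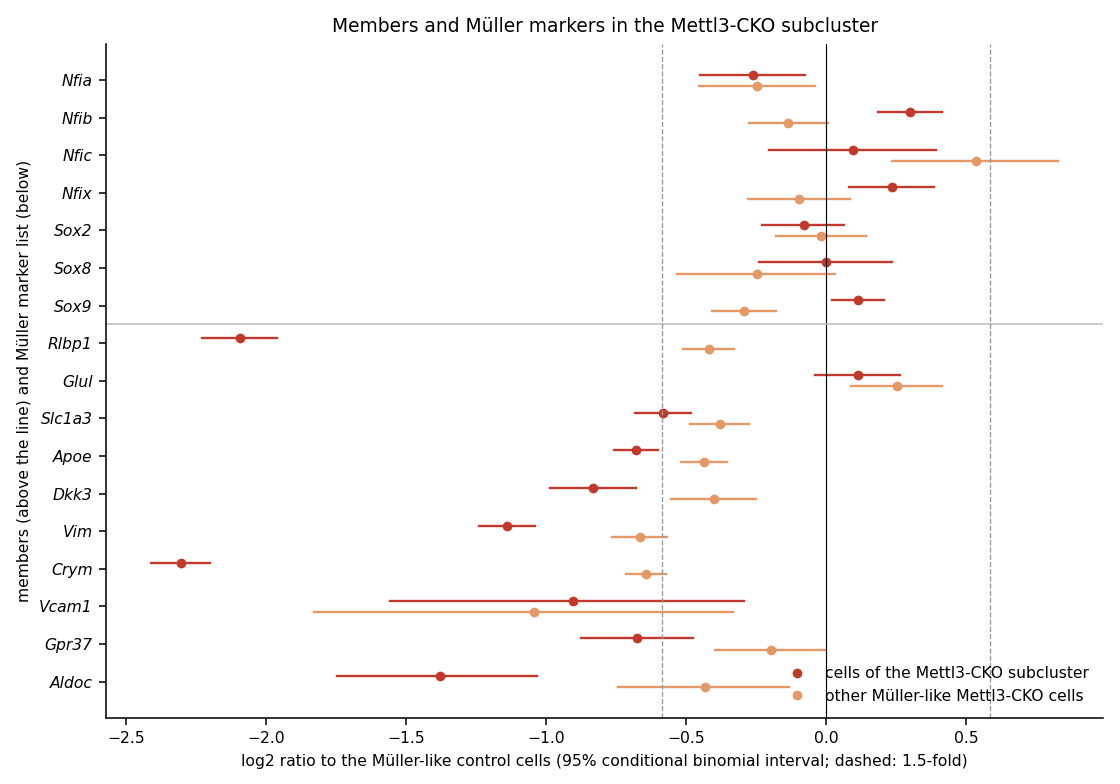
Log2 ratio to Müller-like control cells of the 7 members and the Müller markers, for the 137 Mettl3-CKO cells of the subcluster led by Cdkn1a (109 of them from the unnamed cluster) and for the other Müller-like Mettl3-CKO cells, with 95% conditional binomial intervals and dashed lines at 1.5-fold. The members of the subcluster lie inside the lines, and Rlbp1 lies far to the left at a ratio of 0.234.

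A UMI of both Sox2 and Sox9 was found in part of the cells of the progenitor and glial classes. With each cell thinned to 1000 UMIs, 16.5% (11.0 to 23.2) of RPC-like control cells and 16.2% (11.8 to 21.4) of RPC-like Mettl3-CKO cells had a UMI of both, as did 17.5% (13.4 to 22.3) and 23.7% (16.7 to 31.9) of Müller-like cells. The shares were 4.31% and 4.18% in neurogenic-like cells. In rod-like cells, where both genes were low, they were 0.0876% of 1142 control cells and 0 of 745 Mettl3-CKO cells, which allows up to 0.494% by the upper exact bound. Taken singly, Sox2 was seen in 30.0% and Sox9 in 48.5% of thinned Müller-like control cells. Whether the 2 genes share cells more often than such single rates give was not tested. At full depth 63.4% and 56.5% of Müller-like cells had both, at median depths of 8617 and 7453 UMIs per cell.

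Among the gene lists set beside the members, 0 of 11 gliogenic regulators was 1.5-fold apart between the genotypes in either RPC-like or Müller-like cells. They included Notch1 (510 and 437 CPM in Müller-like cells), Hes1 (870 and 1023), Hes5 (3011 and 2419) and Id1 (668 and 485). In neurogenic-like cells 1 of the 7 measured was, Hes5, at 153 and 260 CPM, a ratio of 1.70 (1.45 to 1.99). Of the 5 glial targets, Fabp7 was higher in Mettl3-CKO cells in both classes, at 67.7 and 111 CPM in RPC-like and at 103 and 157 CPM in Müller-like cells. Mmd2 was at 71.7 and 48.1 CPM in Müller-like cells, a ratio of 0.671 (0.487 to 0.910) just inside the band. Gfap had 0 UMIs in both classes of both libraries. Of the other SoxB1 and SoxE genes, only Sox3 reached 100 UMIs, with 75.0 and 81.6 CPM in Müller-like cells, and Sox10, a SoxE gene of other glia, was at or near 0. Of the RPC markers in Müller-like cells, 2 of 3 measured were past 1.5-fold higher in the Mettl3-CKO library, beside 5.85% of all genes. These were Pcna (48.2 and 73.9 CPM) and Mcm6 (27.6 and 52.4 CPM), both genes of DNA replication. Reclustered at resolution 1, the class held a low-depth subcluster led by Pclaf, Hells and Mcm6, with 18 control and 41 Mettl3-CKO cells. The part of these cells was not tested.

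The genes whose control levels most resembled each member over the 9 named classes were found by Pearson correlation of log levels. For Sox9 these were Mfap2, Ildr2 and Cthrc1, with r of 0.98, 0.98 and 0.97 in the control and 0.99, 0.98 and 0.82 over the same classes of the Mettl3-CKO library. For Sox2 they were Dusp16, Fbxw7 and Greb1, for Sox8 Kctd14, Pard3b and Bmpr1b, for Nfix Cdk14, Tbx3 and Btf3, and for Nfic Col4a3bp, Ccdc186 and Ip6k1. For Nfia they were Reck, Emc10 and Agpat4, of which Reck went from an r of 0.99 in the control library to 0.52 in the Mettl3-CKO library. For Nfib they were Fnbp1l, Dpy19l3 and Bzw1, and Dpy19l3 went from 0.98 to 0.30. The control values were the highest among all genes with at least 100 UMIs and are a description.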

How the data were processed

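Retinas were dissociated with papain and profiled with the 10x Genomics Chromium Single Cell 3′ kit. The authors trimmed reads with fastp and aligned them to GRCm38 (mm10) with Cell Ranger 3.1.0, and the deposited matrices hold raw counts of UMIs per gene and cell, with mitochondrial genes present. The matrices as read here ended before their stated size, and the last, incomplete cell was dropped, so 3994 of 5995 control and 3109 of 6992 Mettl3-CKO barcodes were used and the rest were not analysed here. No cell was filtered out for the main values, although 237 control and 86 Mettl3-CKO cells missed the study's own filter.

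Both libraries were clustered together with scikit-learn 1.9.0 and leidenalg 0.10.2 (2000 variable genes, 10 components, 20 neighbours, resolution 1), without the members, Mettl3 and sex-linked genes. Of 24 clusters, 16 were named by at least 3 fixed markers that were 1.5-fold higher in them. That a cluster with Hes5 and Id3 among its leading genes was not called neurogenic was decided after the clusters were seen. Scrublet, run through Scanpy 1.11.5, marked 61 control cells (1.53%) and 6 Mettl3-CKO cells (0.193%), a share too low for the caller to have worked in the latter. Doublets were therefore kept, and leaving out those cells, or the cells above the 95th percentile of the doublet score, was an alternative.

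UMIs were summed per class and library and divided by the class total without mitochondrial UMIs. A gene counted as past the fold at 1.5-fold or more either way, with at least 100 UMIs in the class over both libraries. Interval code was tested on simulated counts. Named genes were the 7 members, the 3 genes most alike each, and, of the fixed lists, genes past the fold with up to 4 others. The members and lists were chosen with earlier results of these data known.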

Additional observations from a re-analysis of the deposited data

Results flagged for a closer look

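Xist, which no comparison used, stood at 1544 CPM in the Mettl3-CKO library and 1.53 CPM in the control library, and is given here because a gene outside the measured set was far above its control level. A UMI of Xist was found in 1751 of 3109 Mettl3-CKO cells and in 30 of 3994 control cells. With cells of at least 4000 UMIs, and Mettl3-CKO cells without a Xist UMI, the Nfic log2 ratio in RPC-like cells was 0.69 and the Nfib log2 ratio in bipolar-like cells was 0.53, where all cells gave 0.66 and 0.89. In rod-like cells the Nfib log2 ratio was 0.90 on that basis and 1.45 with all cells.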

How the results depend on the processing

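No paired analysis was possible because each genotype had 1 library. Of 545 log2 ratios of single members under the alternatives, 499 had the sign of the main value and 480 lay inside its interval. The count of members higher in RPC-like Mettl3-CKO cells went from 1 to 0 with per-cell means, with thinning to 1000 UMIs, without doublet scores above the 95th percentile and without cells of 5 or more rod UMIs (the last 2 alternatives were chosen after seeing the data). In neurogenic-like cells 1 member was lower with cells of 4000 UMIs or more and no Xist. Naming cells by their own markers gave median log2 ratios of the members of -0.021 in RPC-like and 0.017 in neurogenic-like cells, and turned Sox9 in rod-like cells to -0.34. Thinning gave member medians of 0.080 in neurogenic-like and 0.16 in Müller-like cells and gliogenic regulator medians of -0.091 in RPC-like and 0.32 in neurogenic-like cells, and clustering each library alone gave -0.30 for the latter. The Müller subcluster had 0 members past 1.5-fold when the cluster led by Neurog2, Dll1 and Hes5 was added, and 1 without it. Set against control cells of their own class, also added after seeing the data, its cells gave 0 members for those from Müller-like cells and 1 for those from that cluster. At full depth, Sox2 and Sox9 were found together in 63.4% and 56.5% of Müller-like and 56.7% and 62.9% of RPC-like control and Mettl3-CKO cells. With a minimum of 500 UMIs, 13 of the 21 genes most alike the members stayed in the choice. Subclusters at resolution 1 gave no value for the members, since none had under 5% of its cells from 1 library. The cause of these shifts was not tested, except that thinning lowers the UMIs compared. In cone-like cells Nfib stayed between 1.52 and 3.14 on the log2 scale and in precursor-like cells between 0.23 and 0.54. In amacrine-like cells Nfic ranged from 0.32 to 0.63 and so lay on both sides of 1.5-fold, and in bipolar-like cells Nfib ranged from 0.53 to 1.13.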

Other observations

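Outside the named classes, the unnamed cluster led by Pcp2 had Nfic at 624 CPM (587 to 662) in the control and 575 (533 to 620) in Mettl3-CKO retinas, with Sox9 at 7.07 and 8.42 CPM. An unnamed cluster led by Rtl8a, Ece1 and Pcp2 held both leading NFI genes at like levels, with Nfib at 675 and 822 CPM and Nfic at 551 and 585 CPM. The highest Nfic level of any cluster, 857 CPM (749 to 976) and 974 (847 to 1115), was found in an unnamed cluster led by Gm26518 and Cacna1h, where control Nfib stood at 385 CPM. Over all cells, Nfib was at 457 CPM (448 to 466) in control and 566 (556 to 577) in Mettl3-CKO retinas, while Nfia was at 122 and 122 CPM and Sox8 at 54.8 and 54.7 CPM.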
